A study of Homo sapiens with 2 samples.

Results

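OVCAR5, an ovarian carcinoma cell line carrying a reporter of interferon-gamma sensing, was profiled as 1 pool by droplet single-cell RNA sequencing, with a gene expression and a hashtag library. The labels name 18 conditions, in which cells were unstimulated or exposed for 2, 6, 12 or 24 h to interferon-gamma, dosed at 1, 10 or 100 ng/ml, with some samples frozen. Each cell carried a pair of 8 antibody hashtags. No source used here ties a pair to a condition, so the groups below are named by their hashtags and carry no dose or time. All groups share the OVCAR5 line, its reporter (the cells are labelled CFP+) and the pool.

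The cells described here belong to 6 hashtag pairs with high levels of IRF1, an interferon-induced transcription factor, which split into a pair of trios. Pairs 3+7, 4+7 and 5+6 held 340, 307 and 323 cells and are called the CD74-high trio. Pairs 2+6, 2+8 and 3+4 held 398, 330 and 379 cells and are called the CD74-intermediate trio. The names only set the trios against each other, since 4 other pairs of the series had more CD74 than either. A cell counted when it had at least 500 genes, at most 20% mitochondrial UMIs (unique molecule counts) and a second hashtag at least 5 times the next one plus 1. The trios held 2077 of the 6114 cells with a readable pair, or 34.0%, of 7201 cells past the cell filter. The hashtag limit mattered for few cells: 14 of the 2077 lay between 5 and 6 times, and 23 more cells with one of these pairs on top lay just outside, between 4 and 5 times. Each gene was also set against an IRF1-low pair, 3+5 (493 cells) for the CD74-high trio and 2+4 (320 cells) for the CD74-intermediate trio.

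The pairs were chosen by their measured IRF1 level and the trios from earlier results on these same cells, with CD74 and IDO1 as markers, so the differences below are a description and no test was made. Levels are UMIs of a gene summed over the cells of a pair, divided by all gene UMIs of the pair and scaled to 1000000 (CPM). Intervals are exact at 95% and cover counting error only, since cells of 1 pair in 1 pool are not replicates. The pairs held 9.72e+06 to 1.62e+07 UMIs each. Median depth ran from 31944 to 32945 UMIs per cell in the CD74-high trio and from 29020 to 30146 in the CD74-intermediate trio, with 32092 in pair 3+5 and 29527 in pair 2+4. Epithelial identity held in all 8 pairs, with EPCAM, an epithelial adhesion molecule, at 54.8 to 57.6 CPM in the CD74-high trio and 60.6 to 65.9 CPM in the CD74-intermediate trio. MUC16, the CA125 antigen of many ovarian carcinomas, had at most 3 UMIs in any of the 8 pairs. The leukocyte marker PTPRC had at most 1 UMI in any of them, and CD3E, of the T cell receptor complex, had 0.

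Interferon-gamma binds the IFNGR1 and IFNGR2 receptor, and the kinases JAK1 and JAK2 then signal to promoters with GAS elements, among them that of IRF1. IRF1 in turn takes part in inducing CIITA, the coactivator that is recruited to MHC class II and CD74 promoters by factors including the CCAAT-binding NF-Y. In epithelial and tumour cells the same pathway also raises class I presentation, chemokines and IDO1, the enzyme that starts the breakdown of tryptophan.

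The promoters of 4 genes are shown because they stand for the gene groups on which the trios differ or match: CD74 and HLA-DQB1 of the class II group, IRF1 of the upstream factors, and TNFAIP3, a target and inhibitor of NF-kB. The windows run from 250 bases before to 50 after the annotated start, 5′ to 3′ on the gene's strand, from RefSeq on GRCh38.p14. They lie at chr5:150412861-150413160 (minus strand), chr6:32666608-32666907 (minus), chr5:132490724-132491023 (minus) and chr6:137867009-137867308 (plus), in that order. Capitals mark matches on either strand to CCAAT in CD74 and HLA-DQB1, to TTCNNNGAA (the GAS element) in IRF1 and to GGGNN followed by TTTCC (a kappaB element) in TNFAIP3. Each window was marked for 1 motif only. The IRF1 window also holds CCAAT, and the CD74 window also holds the kappaB letters, both left unmarked, so these letters are not particular to 1 gene group.
CD74: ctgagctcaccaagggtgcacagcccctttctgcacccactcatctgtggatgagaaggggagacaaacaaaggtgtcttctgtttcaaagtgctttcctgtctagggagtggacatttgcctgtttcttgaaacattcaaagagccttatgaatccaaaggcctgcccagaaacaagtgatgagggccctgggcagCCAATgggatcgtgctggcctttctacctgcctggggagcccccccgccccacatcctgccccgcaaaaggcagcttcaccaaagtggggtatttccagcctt
HLA-DQB1: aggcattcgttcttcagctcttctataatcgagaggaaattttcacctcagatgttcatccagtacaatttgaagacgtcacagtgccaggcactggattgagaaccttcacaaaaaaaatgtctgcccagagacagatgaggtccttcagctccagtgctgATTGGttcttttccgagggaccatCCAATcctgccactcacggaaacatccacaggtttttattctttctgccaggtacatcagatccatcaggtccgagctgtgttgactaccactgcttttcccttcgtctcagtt
IRF1: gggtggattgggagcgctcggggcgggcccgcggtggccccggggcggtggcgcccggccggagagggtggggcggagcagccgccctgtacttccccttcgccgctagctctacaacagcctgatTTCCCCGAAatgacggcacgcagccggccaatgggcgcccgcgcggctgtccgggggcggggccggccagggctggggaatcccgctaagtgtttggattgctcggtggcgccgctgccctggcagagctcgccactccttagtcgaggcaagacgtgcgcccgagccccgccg
TNFAIP3: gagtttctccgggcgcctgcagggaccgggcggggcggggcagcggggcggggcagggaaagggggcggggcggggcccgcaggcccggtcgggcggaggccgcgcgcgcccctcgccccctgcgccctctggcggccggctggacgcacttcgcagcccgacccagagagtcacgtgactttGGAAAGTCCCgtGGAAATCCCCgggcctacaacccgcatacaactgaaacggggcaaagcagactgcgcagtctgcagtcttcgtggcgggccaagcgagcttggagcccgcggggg
The CCAAT match of CD74 began 53 bases before the start, and those of HLA-DQB1 began 88 and 64 bases before it. The GAS match of IRF1 began 124 bases before the start, and the kappaB matches of TNFAIP3 began 67 and 55 bases before it. CCAAT was present in 6 of the 7 class II genes with an entry, of 8 higher in the CD74-high trio, against 34.6% of 35116 promoter windows. TTCNNNGAA was present in 3 of 10 interferon transcription factors with an entry, of 17, against 7.66% of windows. The kappaB letters were present in 5 of 6 NF-kB genes with an entry, of 8 lower in the CD74-high trio, against 1.91% of windows. The gene groups were counted by gene, with a match in any window of the gene, and had 8, 15 and 9 windows in that order. The shares over all promoters were counted by window, so the units differ. A match is only a match of letters in these windows and does not show binding. The lists were drawn up by pathway, and for class II and NF-kB only called members were counted. Members without a call were not set beside them, so these shares say nothing about the difference between the trios.

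IRF1 and CIITA differed little between the trios in their own levels. IRF1 had 841, 1004 and 995 CPM in pairs 3+7, 4+7 and 5+6, against 1012, 1046 and 1058 CPM in pairs 2+6, 2+8 and 3+4. The ratio of trio means was 0.912, although the IRF1-low pairs lay far below, at 60.4 CPM in 3+5 and 43.7 CPM in 2+4. CIITA had 20.4, 25.5 and 26.2 CPM in the CD74-high trio and 26.0, 26.8 and 28.7 CPM in the CD74-intermediate trio, with 1.11 and 1.03 CPM in 3+5 and 2+4. Both factors were thus many times above the IRF1-low pairs in either trio, and neither was higher in the CD74-high trio. Because IRF1 was itself higher in 3+5 than in 2+4, its level over the IRF1-low pair was 15.7-fold in the CD74-high trio and 23.8-fold in the CD74-intermediate trio, a ratio of 0.660. NLRC5, the class I coactivator, had 19.5 to 22.9 CPM in the CD74-high trio and 20.5 to 24.0 CPM in the CD74-intermediate trio.

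A gene was called higher or lower when the 3 pairs of one trio did not overlap those of the other and the trio means differed at least 1.5-fold, among genes with at least 100 UMIs over the 6 pairs. By this rule 377 of 11744 genes were higher in the CD74-high trio (3.21%) and 571 were lower (4.86%). None of the 17 interferon transcription factors was called, with a median ratio of 1.06 against 0.981 over all genes. Relative to the IRF1-low pairs their median was 0.915, and 3 of the 17, IRF1 among them, were at least 1.5-fold lower in the CD74-high trio. RFX5, a subunit of the RFX complex that binds class II promoters, came nearest, with 10.6, 13.8 and 14.3 CPM in the CD74-high trio and 10.7, 7.91 and 7.40 CPM in the CD74-intermediate trio, which overlap slightly. None of 7 receptors and kinases was called. IFNGR2 had 34.7 to 37.9 CPM in the CD74-high trio and 50.2 to 54.2 CPM in the CD74-intermediate trio, a ratio of 0.700, and pair 3+5 stood at 0.710 of pair 2+4.

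**Figure D1:**
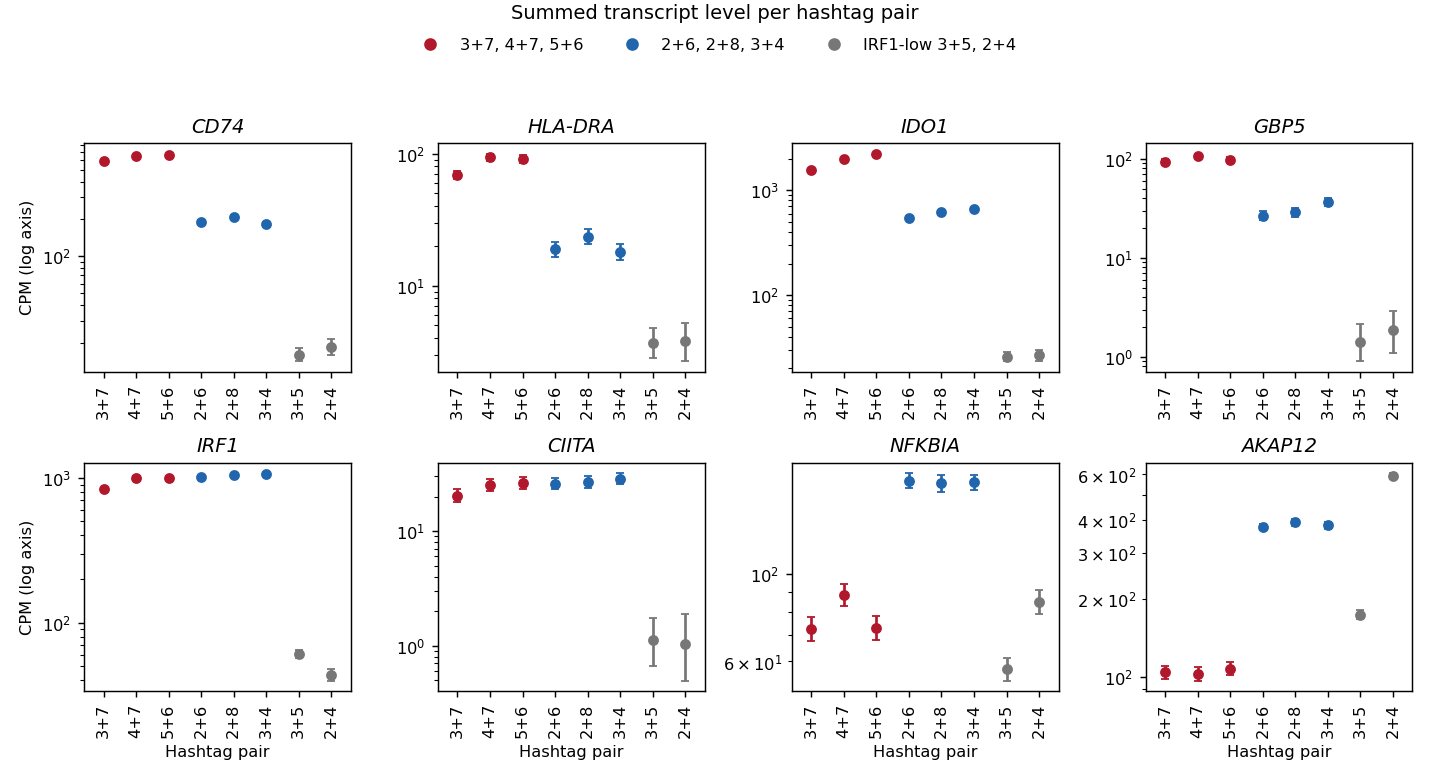
CPM (log axis, scaled per gene) of 8 genes in each hashtag pair, with exact 95% Poisson intervals; the CD74-high trio is red, the CD74-intermediate trio blue and the IRF1-low pairs grey. CD74, HLA-DRA, IDO1 and GBP5 are higher in each red pair than in each blue pair, IRF1 and CIITA stand close together in both trios, and NFKBIA and AKAP12 are lower in the CD74-high trio.

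MHC class II genes had the largest median ratio of the 38 lists, 4.31 over the 8 genes with enough UMIs. CD74, the invariant chain that guides class II molecules, had 592, 650 and 660 CPM in the CD74-high trio, against 190, 208 and 183 CPM in the CD74-intermediate trio. The lowest CD74-high pair stood 2.85-fold above the highest CD74-intermediate pair (2.72 to 3.0). Pairs 3+5 and 2+4 had 16 and 18.4 CPM, so the level over the IRF1-low pair was 39.6-fold in the CD74-high trio and 10.5-fold in the CD74-intermediate trio. HLA-DRA, the invariant alpha chain of HLA-DR, had 69.1, 93.5 and 90.8 CPM in the CD74-high trio, against 18.8, 23.5 and 18 CPM in the CD74-intermediate trio. HLA-DMB, a chain of the peptide editor HLA-DM, had 17.4, 18.6 and 18.6 CPM, against 5.08, 4.98 and 4.84 CPM in the CD74-intermediate trio. In both genes every CD74-high pair lay far above every CD74-intermediate pair, while the IRF1-low pairs differed little, at 3.71 and 3.80 CPM for HLA-DRA and 1.11 and 1.23 CPM for HLA-DMB in 3+5 and 2+4.

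All 8 class II genes that reached 100 UMIs were called higher, with ratios of trio means from 2.11 for HLA-DMA, the partner chain of HLA-DM, to 5.00 for the HLA-DP beta chain HLA-DPB1. HLA-DRB1, HLA-DPA1 and HLA-DQB1, chains of the DR, DP and DQ dimers, had ratios of 4.54, 4.46 and 4.41. Between the IRF1-low pairs HLA-DPA1 was 2.18-fold higher in 3+5, and its ratio relative to them was 2.05. HLA-DQB1 went the other way, on 2 UMIs in 3+5, counted as 3, and 5 UMIs in 2+4, with a relative ratio of 12.2. The relative ratio of HLA-DPB1, 4.99, rests on 5 UMIs in 3+5 and 1 UMI in 2+4, counted as 3, and would be smaller without that setting. The minimum was reached over both trios together, so low genes could reach it through the CD74-high pairs. The 6 others of the list, HLA-DRB5, HLA-DQA1, HLA-DQA2, HLA-DQB2, HLA-DOA and HLA-DOB, had too few UMIs for a call and ratios of 1.94 to 5.94. Counts of HLA genes that share sequence, such as HLA-DRB1 with HLA-DRB5, may be split or merged by the read assignment. Within the CD74-high trio, pair 3+7 was the lowest for 8 of the 8 genes, whereas it was the lowest for 32.0% of all genes. Within the CD74-intermediate trio, pair 3+4 was the lowest for 7 of the 8.

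Over all 18 hashtag pairs of at least 100 cells, no pair fell between the trios in CD74, IDO1 or HLA-DRA. For each of these genes 4 other pairs lay above both trios and 8 below both. The highest other pair reached 1278 CPM of CD74 and 4298 CPM of IDO1. For IRF1, 3 other pairs lay above all 6 pairs of the trios, 6 below them and 3 within their range.

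IDO1 and the class I pathway were also higher. IDO1 had 1574, 1995 and 2199 CPM in the CD74-high trio, against 550, 615 and 662 CPM in the CD74-intermediate trio. Its IRF1-low levels were 25.8 CPM in 3+5 and 26.6 CPM in 2+4, which gives a level over them of 74.6-fold in the CD74-high trio and 22.9-fold in the CD74-intermediate trio. WARS, the cytosolic tryptophanyl-tRNA synthetase, had 960, 1080 and 1070 CPM in the CD74-high trio and 555, 614 and 600 CPM in the CD74-intermediate trio. The downstream kynurenine enzyme KYNU overlapped, at 1.48 to 3.54 CPM in the CD74-high trio and 2.55 to 6.45 CPM in the CD74-intermediate trio.

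Of 14 genes of class I peptide supply, 5 were higher and none lower. They were PSMB8, PSMB9 and PSMB10, the catalytic subunits of the immunoproteasome, and TAP1 and TAP2, the peptide transporter. PSMB9 had 799, 830 and 789 CPM in the CD74-high trio, against 418, 427 and 440 CPM in the CD74-intermediate trio. TAP1 had 396, 415 and 432 CPM, against 267, 275 and 276 CPM in the CD74-intermediate trio. These trios did not overlap, and the spread within each was small beside the gap between them. The endoplasmic reticulum chaperones of the same list stood near 1, with ratios of 1.01 for CALR, 1.08 for PDIA3 and 0.978 for CANX. Among 7 class I genes, HLA-B (ratio 1.77), HLA-F (2.30) and HLA-G (1.81) were higher. The light chain B2M had 3603 to 3817 CPM in the CD74-high trio and 2870 to 2924 CPM in the CD74-intermediate trio, a ratio of 1.29. HLA-E stayed just under the limit, with 392, 428 and 433 CPM in the CD74-high trio and 274, 284 and 279 CPM in the CD74-intermediate trio.

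Class I and class II genes thus differed by unlike amounts, a median ratio of 1.5 over 7 class I genes and 4.31 over 8 class II genes. In the lysosomal processing list, 2 of 10 were higher: CTSS, a cathepsin that trims the invariant chain, at 1.91-fold, and IFI30, a lysosomal thiol reductase, at 1.52-fold. CTSD, another lysosomal protease, was not called, with 302 to 316 CPM in the CD74-high trio and 399 to 415 CPM in the CD74-intermediate trio.

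The guanylate-binding proteins, interferon-induced GTPases of cell-autonomous defence, split. GBP5 had 92.9, 106 and 98.2 CPM in the CD74-high trio, against 26.7, 28.7 and 36.7 CPM in the CD74-intermediate trio, and GBP4 and GBP7 had ratios of 1.57 and 1.55. GBP1, the most abundant, ran the other way without reaching the limit, with 505, 540 and 552 CPM in the CD74-high trio and 621, 645 and 649 CPM in the CD74-intermediate trio. The IRF1-low pairs also differed in GBP1, at 11.2 CPM in 3+5 and 28.3 CPM in 2+4. Its level over the IRF1-low pair was therefore larger in the CD74-high trio by a factor of 2.11, although its own level was not.

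Of 40 antiviral effectors, 9 were higher and none lower, with a median ratio of 1.2. UBE2L6, which conjugates ISG15, had 424, 450 and 454 CPM in the CD74-high trio, against 268, 269 and 261 CPM in the CD74-intermediate trio. ISG20, an exonuclease, had 419, 461 and 490 CPM, against 233, 248 and 262 CPM in the CD74-intermediate trio. ISG15 itself overlapped between trios, at 1112 to 1316 CPM in the CD74-high trio and 1120 to 1230 CPM in the CD74-intermediate trio. Pair 3+7 was the lowest of its trio in 35 of the 40 genes and in 12 of the 17 transcription factors, against 32.0% of all genes. IFIT1, one of the 9, was already 2.25-fold higher in 3+5 than in 2+4, so that relative to the IRF1-low pair its ratio turned to 0.686. CASP1, the inflammatory caspase, was the only one called of 20 cell death genes, with 18.9, 23.0 and 23.4 CPM in the CD74-high trio and 10.3, 11.2 and 10.1 CPM in the CD74-intermediate trio. No gene of the PARP and DTX3L list was called.

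Chemokines went both ways. Of 15 chemokines and cytokines, CXCL9 and CXCL11, ligands of CXCR3, were higher. CXCL11 had 101, 151 and 152 CPM in the CD74-high trio, against 64.8, 71.6 and 81.4 CPM in the CD74-intermediate trio. CXCL10, the third ligand of that receptor, overlapped, with 168, 189 and 255 CPM in the CD74-high trio and 227, 269 and 309 CPM in the CD74-intermediate trio. CCL2, a monocyte attractant, had 3.05, 2.39 and 3.97 CPM, against 11.8, 16.8 and 13.9 CPM in the CD74-intermediate trio. CX3CL1 (fractalkine), CXCL2 and CCL7 were also lower, with ratios of 0.239, 0.344 and 0.457. The IRF1-low pairs had 0.247 and 0.103 CPM of CX3CL1 in 3+5 and 2+4, on 4 UMIs and 1 UMI. CXCL11 had 2.84 CPM in 3+5 and 1.44 CPM in 2+4, so that relative to the IRF1-low pair its ratio turned to 0.94. CXCL2 came to 0.987 on that scale, and CXCL9 to 3.81 on 3 and 4 UMIs. CCL7 came to 1.27, on 1 UMI in 3+5, counted as 3, and 5 UMIs in 2+4. A few cells held much of some of these genes: the 21 cells with most held 31.3% of CXCL9 and 31.0% of CCL2 UMIs in the 6 pairs, against 5.25% for CD74. CXCL8, named here after its values were seen, had 91.3% of its UMIs in 21 cells and was not called.

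Of 13 NF-kB targets, 8 were lower in the CD74-high trio and none higher. NFKBIA, the inhibitor that NF-kB induces, had 72.6, 88.4 and 73.0 CPM in the CD74-high trio, against 172, 169 and 170 CPM in the CD74-intermediate trio. Its IRF1-low levels were 57.3 CPM in 3+5 and 84.9 CPM in 2+4. TNFAIP3, whose promoter is shown above, had 5.32, 7.57 and 4.44 CPM, against 12.9, 14.4 and 16.9 CPM in the CD74-intermediate trio, with 2.72 CPM in 3+5 and 6.79 CPM in 2+4. BIRC3, an inhibitor of apoptosis, had a ratio of 0.492, and the subunits RELB, NFKB2 and NFKB1 had 0.543, 0.564 and 0.654. The IRF1-low pairs differed by 1.5-fold in 6 of the 13, all lower in 3+5. After division by the IRF1-low pair the median ratio of the list was 0.986, against 0.597 before it.

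Other groups of genes were lower together. Of 11 targets of YAP and matricellular genes, 7 were lower, of 20 genes of cholesterol synthesis and uptake, 13, and of 11 immediate early genes, 6. THBS1, a matricellular glycoprotein, had 21.5, 17.8 and 21.4 CPM in the CD74-high trio, against 73.8, 83.2 and 68.9 CPM in the CD74-intermediate trio. AKAP12, a scaffold of kinase signalling, had 104, 103 and 108 CPM, against 378, 393 and 384 CPM in the CD74-intermediate trio. CLDN1, a tight junction protein, had 17.0, 11.5 and 17.9 CPM, against 86.3, 89.2 and 81.9 CPM in the CD74-intermediate trio. These 3 genes also differed between the IRF1-low pairs in the same direction, with 33.6, 174 and 15.7 CPM in 3+5 and 106, 591 and 76.7 CPM in 2+4. SCD, a fatty acid desaturase, had a ratio of 0.310, and LSS and DHCR7 of the sterol pathway had 0.497 and 0.445. SCD had 31.4 CPM in 3+5 and 82.0 CPM in 2+4, and relative to them its ratio was 0.810. None of the 20 cholesterol genes was at least 1.5-fold lower relative to the IRF1-low pairs, with a median ratio of 0.818. CYP1B1, a target of the aryl hydrocarbon receptor, had 251, 312 and 336 CPM in the CD74-high trio, against 566, 637 and 594 CPM in the CD74-intermediate trio. It too was lower in 3+5 than in 2+4, at 309 and 486 CPM.

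Of 12 replication-dependent histone genes, 10 were higher in the CD74-high trio and none lower. Of 32 G2/M genes, 9 were higher and none lower, with a median ratio of 1.42 over all 32. HIST1H1D, a linker histone, had 99.9, 95.5 and 94.6 CPM in the CD74-high trio, against 27.0, 26.3 and 39.7 CPM in the CD74-intermediate trio. TOP2A, the mitotic topoisomerase, had 421, 453 and 356 CPM, against 284, 246 and 215 CPM in the CD74-intermediate trio. Pair 3+5 was likewise above 2+4, at 118 and 39.0 CPM for HIST1H1D and 438 and 311 CPM for TOP2A. None of 28 S phase genes was called. Related histone genes are near copies, so their counts may be shared. Of 17 hypoxia and glycolysis genes, NDRG1 and PFKFB4 were higher (ratios 2.18 and 3.40). PFKFB4 was also 2.87-fold higher in 3+5 than in 2+4, so relative to the IRF1-low pair its ratio was 1.19. Of 17 amino acid and unfolded protein response genes, DDIT4, an inhibitor of mTORC1, was higher (2.35), while SLC7A11 and SLC7A5 were lower. Relative to the IRF1-low pairs none of these 17, DDIT4 included, was at least 1.5-fold higher, and 3 were at least 1.5-fold lower. Over all genes the shares called between the trios were 3.21% higher and 4.86% lower. None of 21 cytosolic ribosomal, 13 mitochondrial or 12 housekeeping genes was called. IL7R, the only gene of the T cell list with enough UMIs, and CD14, of the myeloid list, were lower in the CD74-high trio, with ratios of 0.560 and 0.537. The T cell list, nearly all IL7R, summed to 49.2 to 56.9 CPM in the CD74-high trio and 90.3 to 98.8 CPM in the CD74-intermediate trio, while 5 of its 9 genes, among them CD3E, CD3G and TRAC, had 0 UMIs in all 8 pairs. The myeloid list, of which 2 of 9 genes had enough UMIs, summed to 31.4 to 35.0 CPM in the CD74-high trio and 28.4 to 35.5 CPM in the CD74-intermediate trio, with TYROBP and AIF1 at 0.

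Part of these differences was also present between the IRF1-low pairs. Between them, 4.76% of genes were at least 1.5-fold higher and 5.25% lower in 3+5 than in 2+4. Of the 377 genes higher in the CD74-high trio, 182 (48.3%) were also at least 1.5-fold higher in 3+5 than in 2+4, and 183 (48.5%) differed by less. Of the 571 lower genes, 272 (47.6%) were also lower in 3+5, and 297 (52.0%) differed by less. After division of each trio by its IRF1-low pair, 78 of the 377 still differed 1.5-fold upwards and 136 of the 571 downwards. Over all genes the shares were 2.6% and 4.15%. The 377 and 571 genes were chosen by the same ratio of trios that is divided here, so larger shares among them follow in part from that choice. The class II genes all differed 1.5-fold upwards after this division, with a median of 4.19. The histone list had a median of 0.859 and the YAP list of 1.05. Among the 15 lower genes with the widest gap between trios, THSD7A, PPP2R2B, CX3CL1, CCL2 and TMEM156 kept ratios of 0.335, 0.433, 0.298, 0.527 and 0.501. That of CX3CL1 rests on 4 UMIs in 3+5 and 1 UMI in 2+4, counted as 3. PPP2R2B, a regulatory subunit of a protein phosphatase, had 9.51, 9.68 and 10.3 CPM in the CD74-high trio, against 31.5, 33.9 and 34.7 CPM in the CD74-intermediate trio, with 26.1 CPM in 3+5 and 38.4 CPM in 2+4. There was 1 IRF1-low pair for each trio, so these ratios carry no spread.

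**Figure D2:**
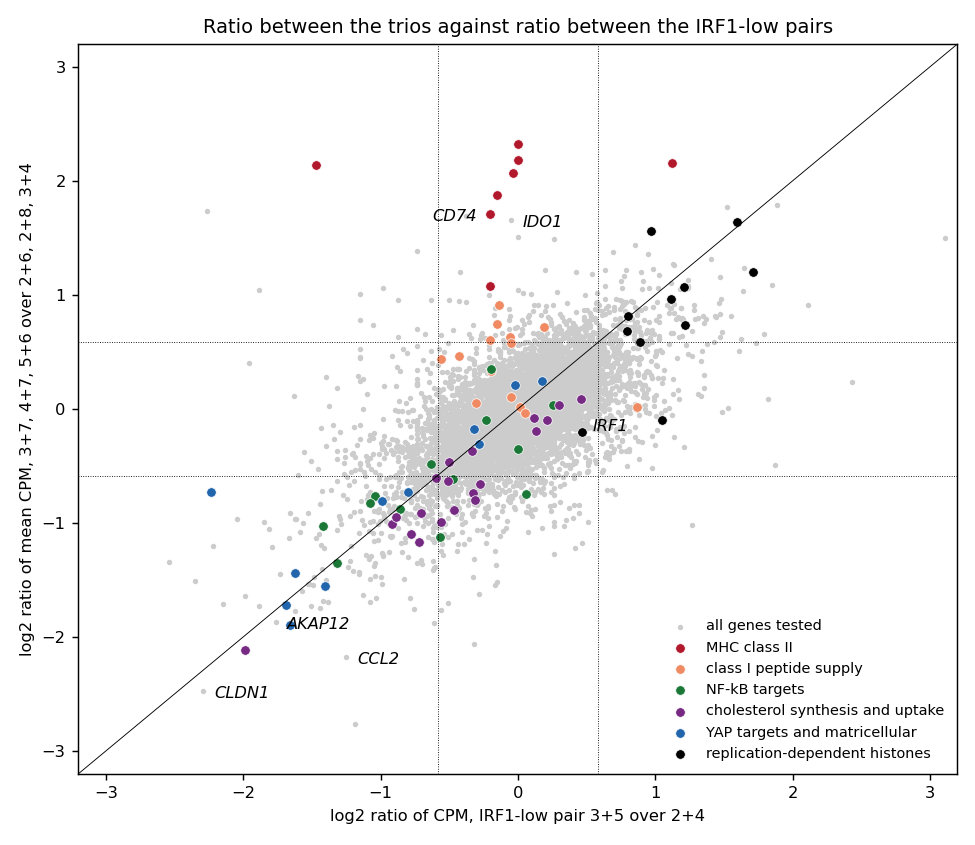
Each point is a gene, with the log2 ratio of pair 3+5 over 2+4 on the x axis and the log2 ratio of the CD74-high over the CD74-intermediate trio on the y axis; dotted lines mark 1.5-fold and the solid line equal ratios, and a low-count gene of an IRF1-low pair was set to 3 UMIs. Class II genes, CD74 and IDO1 lie high above the line, most of them near 0 on the x axis. Past 1.5-fold on that axis are HLA-DPA1, to the right at a ratio of 2.18, and HLA-DQB1, to the left at 0.361. HLA-DPB1 is drawn at a ratio of 1.00 because its 1 UMI in 2+4 was set to 3. Histone, YAP and several cholesterol genes lie along the line.

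Counts per cell were compared at equal depth, with 10000 UMIs drawn from each cell. CD74 had a UMI in 92.8, 95.3 and 94.3% of cells in pairs 3+7, 4+7 and 5+6, against 65.8, 63.6 and 64.7% in pairs 2+6, 2+8 and 3+4. The share was 14.8% in 3+5 and 17.5% in 2+4, shares that include what free RNA gives. Without thinning it was 96.5 to 97.4% in the CD74-high trio and 80.7 to 82.9% in the CD74-intermediate trio, with 34.3% in 3+5 and 35.3% in 2+4. Median CD74 was 5, 6 and 6 UMIs in the CD74-high trio and 1 UMI in each pair of the CD74-intermediate trio. Median IDO1 was 13, 19 and 19 UMIs in the CD74-high trio and 4, 5 and 5 UMIs in the CD74-intermediate trio. Of the CD74-high cells, 87.8% lay above the CD74-intermediate median for CD74 and 88.4% for IDO1. The cells of the trios overlapped all the same, and 5.92% of CD74-intermediate cells exceeded the CD74-high median of CD74.

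HLA-DRA had a UMI in 40.4, 48.2 and 48.6% of CD74-high cells, against 17.6, 17.9 and 15.4% of CD74-intermediate cells and 3.33% in 3+5 and 4.44% in 2+4. Without thinning the shares were 69.1 to 78.5% in the CD74-high trio and 31.7 to 35.8% in the CD74-intermediate trio, with 9.74% in 3+5 and 10.0% in 2+4. CIITA had a UMI in 18.9, 23.6 and 25.4% of CD74-high cells, against 21.8, 21.6 and 25.3% of CD74-intermediate cells. HLA-DRA shares did not overlap between the trios, whereas CIITA shares did. CXCL10 was found in 27.5, 34.9 and 38.4% of CD74-high cells, against 36.0, 37.7 and 43.4% of CD74-intermediate cells.

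**Figure D3:**
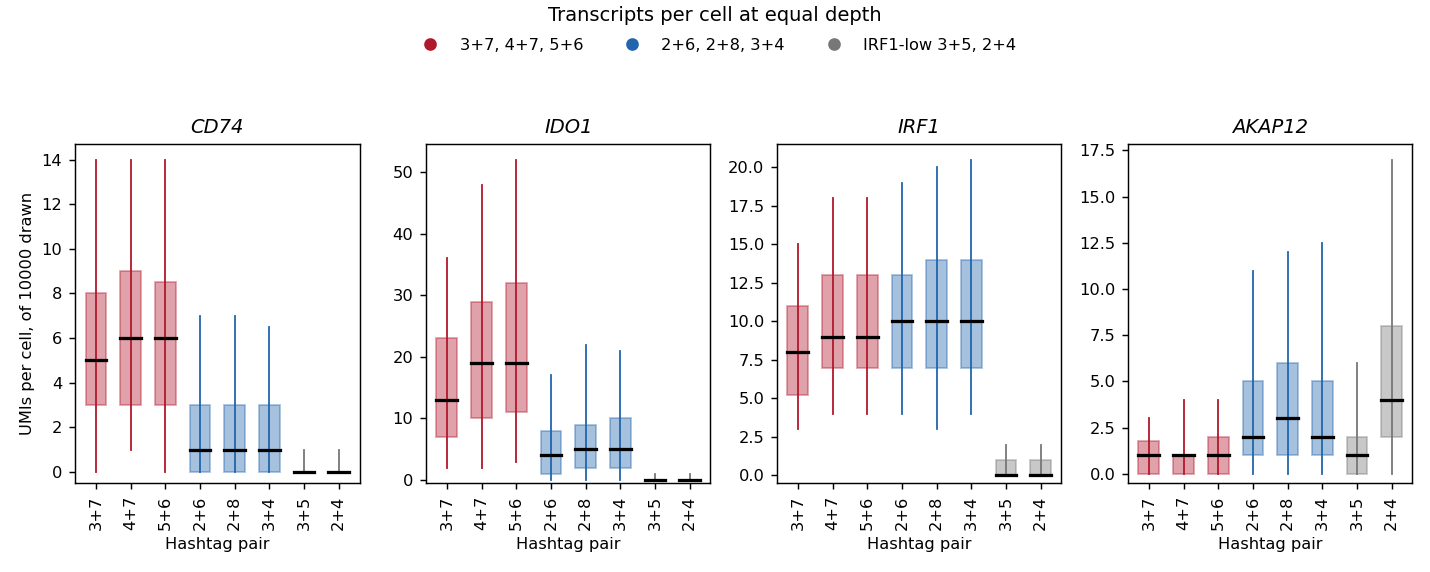
UMIs per cell after drawing 10000 UMIs, by hashtag pair; black lines are medians, boxes run from the 25th to the 75th percentile and whiskers from the 5th to the 95th. CD74 and IDO1 medians are higher in each pair of the CD74-high trio than in the CD74-intermediate trio, IRF1 medians are 8 to 10 in all 6 pairs, and AKAP12 is lower in the CD74-high trio.

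Cell cycle makeup moved with the trios. Cells low in both G2/M and histone transcripts made up 21.2, 26.1 and 25.1% of the CD74-high pairs, against 42.0, 47.0 and 47.5% of the CD74-intermediate pairs, and 16% of 3+5 and 42.2% of 2+4. In these cells alone, 262 of 9375 genes were higher (2.79%) and 442 lower (4.71%). All 8 class II genes were higher there too, with a median ratio of 3.2, and CD74 and IDO1 had ratios of 2.41 and 2.96. NF-kB targets had 9 of 13 lower and cholesterol genes 10 of 18, against 8 of 13 and 13 of 20 in all cells. Of 14 genes of class I peptide supply 3 were higher there, PSMB8, PSMB9 and PSME2, an activator subunit of the proteasome, while PSMB10, TAP1 and TAP2 no longer met the rule, with ratios of 1.46, 1.36 and 1.48. Antiviral effectors had 4 of 40 higher, against 9 in all cells, and IFI30, GBP4, SAMHD1 and IFIT1 were among the genes that lost the call, at 1.42, 1.39, 1.48 and 1.12. CXCL9 and CXCL11 no longer met it either, with ratios of 1.15 and 1.48, and CXCL10 met it as lower, at 0.459. None of 4 histone genes was higher, but the cells were chosen for few histone transcripts, so that count follows from the choice in part. G2/M genes still differed in these cells, with 10 of 26 higher and a median ratio of 1.39. Of the genes called in all cells, 36.9% of the higher and 41.3% of the lower were called again, on fewer cells. Over all cells the summed G2/M list stood at 4048 to 4676 CPM in the CD74-high trio and 2908 to 3504 CPM in the CD74-intermediate trio, with 4928 CPM in 3+5 and 3661 CPM in 2+4. The part of the cycle in each of the other differences was not tested.

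**Figure D4:**
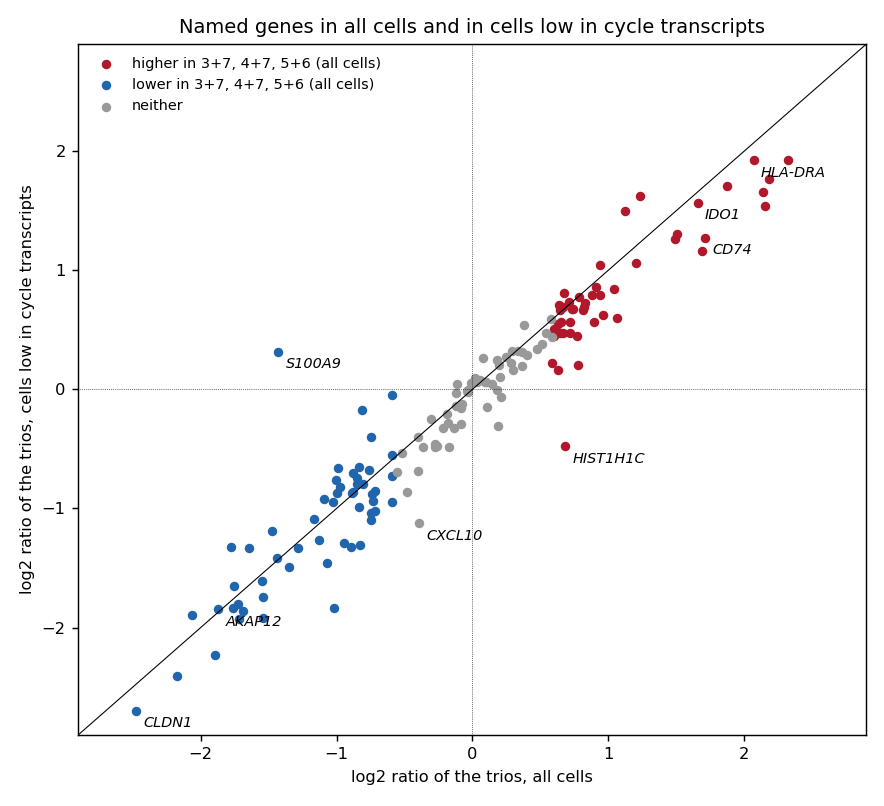
Log2 ratio of the CD74-high over the CD74-intermediate trio for 155 named genes, in all cells (x axis) and in cells low in G2/M and histone transcripts (y axis); the solid line marks equal ratios. CD74, IDO1, HLA-DRA, CLDN1 and AKAP12 keep their side, while HIST1H1C and S100A9 change sides.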

How the data were processed

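Deposited were raw UMI counts per gene and barcode and per hashtag and barcode, not normalised, in 1 matrix in which both libraries share all 7804 barcodes. Its header names Cell Ranger 5.0.1. Per the submitters' processing notes, the tools were Cell Ranger 2.1.1 with GRCh38, so the version behind the counts is uncertain. For the calling of barcodes as cells, no rule was found in the labels. Counts come from the 3′ ends of transcripts, so a level depends on how well each gene's end is primed and read.

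Cells and pairs were chosen as described above. Each gene's UMIs were summed over a pair's cells and scaled by all gene UMIs of that pair. Exact Poisson intervals were used for levels, exact conditional intervals for ratios of pairs and Clopper-Pearson intervals for shares, at 95%. A gene of an IRF1-low pair with under 3 UMIs was set to 3. Free RNA was not subtracted, and no doublet caller was run beyond the hashtag rule, which misses doublets within a pair. TMM factors came from edgeR 4.0.16 in R 4.3.3, the rest from Python 3.11.15 with numpy 2.4.6, scipy 1.17.1, pandas 2.3.3 and matplotlib 3.10.9. The pair rule and the call rule were tested on simulated counts, and the other calculations were not.

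The members, the trios and the 38 gene lists were chosen with earlier results of these data known. Named genes are IRF1, CD74, IDO1, the 15 genes each way with the widest gap between the nearest pairs, and for each list up to 6 called members by fold and the 2 of highest level. CIITA, NLRC5, RFX5, KYNU, HLA-DMA, NFKB1, CALR, PDIA3, CANX, CXCL8, EPCAM, MUC16, PTPRC, CD3E, CD3G, TRAC, TYROBP, AIF1, GPX2, NCKAP5L, TBCE and the class II genes without a call were named outside this rule, some after their values were seen. A few genes that the rule names are not reported here. Alternatives covered the cell and hashtag limits, scaling, thinning, cell weights, the UMI minimum, the fold limit, each pair left out and cells low in cycle transcripts. Leaving out the 5% of cells highest in antiviral transcripts was chosen after seeing the data.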

Additional observations from a re-analysis of the deposited data

Results flagged for a closer look

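Against their IRF1-low pairs, the trios lay on opposite sides in 3 genes of low count, and the difference was not tested. GPX2, a glutathione peroxidase, was 7.77-fold above pair 3+5 in the CD74-high trio and at 0.486 of pair 2+4 in the CD74-intermediate trio, a ratio of 16. NCKAP5L stood at 1.59 times pair 3+5 in the CD74-high trio and 0.561 of pair 2+4 in the CD74-intermediate trio, a ratio of 2.84. TBCE, a tubulin folding cofactor, stood at 0.562 of pair 3+5 in the CD74-high trio and 2.9 times pair 2+4 in the CD74-intermediate trio, a ratio of 0.194. Its symbol belongs to 2 Ensembl entries in the matrix, so its counts may be split. All 3 had under 6 CPM in every pair of both trios.

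CD74 and IDO1 were also found outside the hashtag pairs. In the 1087 cells without a readable pair CD74 stood at 439 CPM (433 to 445) and IDO1 at 1165 CPM (1155 to 1174). In the 603 barcodes that failed the cell filter CD74 stood at 237 CPM (222 to 252) and IDO1 at 635 CPM (610 to 660). The limit that a count of 0 allows was 0.0568 CPM in the first set and 0.756 CPM in the second. These barcodes were assigned to neither trio.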

How the results depend on the processing

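The counts of 377 higher and 571 lower genes depended most on the limits set for a call. A minimum of 300 UMIs gave 251 higher and 316 lower genes, a minimum of 1 UMI gave 723 and 1311, and a fold of at least 2 gave 60 and 144. Drawing 10000 UMIs per cell gave 300 higher and 361 lower genes, of which 188 and 244 were shared with the full counts. Calls were thus both lost and gained by thinning, and the part of depth in this was not tested. TMM scaling gave 443 higher and 495 lower genes. Leaving out 1 pair at a time gave 367 to 398 higher and 528 to 611 lower genes. Without the 5% of cells highest in antiviral transcripts the counts were 380 and 553. Of the 175 named genes 120 were called, and 41 of them differed 1.5-fold the same way relative to the IRF1-low pair, against 120 when the mean of both IRF1-low pairs served for all 6 pairs, where by construction the ratio equals that of the trios. Of 2451 recomputed ratios of named genes, 2088 lay inside the counting interval and 5 changed direction. They were CDH1, at 1.12 with thinning and 1.58 in cells low in cycle transcripts against 0.415 in all cells, and in the low-cycle cells S100A9 at 1.25, HIST1H1B at 0.938 and HIST1H1C at 0.718, the last 2 in cells chosen for few histone transcripts. The 21 cells with most held 75.6% of CDH1 and 74.6% of S100A9 UMIs. CD74 ran from 2.41 to 3.40, IDO1 from 2.93 to 3.44 and HLA-DRA from 3.79 to 4.60 over these alternatives. No paired analysis was possible because the pairs carry no replicate numbers and no test was made. Levels of a few UMIs, as in the IRF1-low pairs, limit the ratios to them most.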

Other observations

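Some epithelial, growth arrest and growth factor genes also differed between the trios. Of 15 epithelial and mesenchymal genes 1 was higher and 5 were lower. Growth arrest and cyclin D genes had 2 higher and 3 lower of 11, and EGF receptor ligands 0 and 2 of 6. Over all genes the shares were 3.21% and 4.86%. Relative to the IRF1-low pairs, the genes at least 1.5-fold higher and lower numbered 0 and 2, 0 and 1, and 1 and 0, in that order of lists. FN1, the matrix protein fibronectin, had 11.3, 10.5 and 11.2 CPM in the CD74-high trio, against 22.6, 25.7 and 18.8 CPM in the CD74-intermediate trio. CLDN4, a claudin, was higher while CLDN1, CLDN3 and CLDN7 were lower, with ratios of 1.60 for CLDN4 and 0.180, 0.556 and 0.560 for the others. HBEGF and AREG, ligands of the EGF receptor, had ratios of 0.410 and 0.598, whereas EREG overlapped. CDKN1B and CDKN2D, inhibitors of cyclin-dependent kinases, were higher at 1.63 and 2.18, and CDKN1A was lower at 0.607. AGR2, PTX3 and FST, secreted or secretory pathway proteins, were lower at 0.293, 0.343 and 0.320, and each was also lower in pair 3+5 than in 2+4, at 0.324, 0.355 and 0.252.

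The spread within a trio was wider in called genes than in all genes with the same UMI minimum. Among called genes with at least 2000 UMIs, the highest over the lowest pair of the CD74-high trio had a median of 1.12 for 72 higher genes and 1.11 for 104 lower genes, and of 1.13 and 1.10 in the CD74-intermediate trio. Over all 4256 tested genes with that many UMIs the median was 1.07 in the CD74-high trio and 1.06 in the CD74-intermediate trio. The widest span in the CD74-high trio was 1.91. The rule for a call uses the same pairs, so the spans of called genes depend on it.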
